A study of Rattus norvegicus with 4 samples.

Results

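Tac1, Tac3, Nts and Cartpt, which encode the precursors of tachykinins, neurotensin and CART peptides, were followed in single nuclei of the rat nucleus accumbens. They were taken by symbol and are 4 of the 30560 genes of the deposited count tables, each listed once. Adult Sprague-Dawley rats aged 90 to 120 days and housed in pairs were injected intraperitoneally with saline or with 20 mg per kg of cocaine on 7 days in a row, each followed by time in an open field. Tissue was frozen 1 hour after the seventh injection. Tissue of 4 rats was pooled for each of 4 libraries, a saline and a cocaine library of females and a saline and a cocaine library of males, so that 16 rats gave 2 libraries per treatment. Where 4 values follow each other, they stand for saline females, cocaine females, saline males and cocaine males; where 2 values of a treatment do, females come first. The labels name no transgene and no other agent, and the punch was centred on the core of the accumbens, so the shell and neighbouring tissue may be present to a degree that the labels do not give. The p-values below measure the spread between pools of rats, drawn towards a trend over all genes. Fits of treatment have sex as a covariate unless it is said to be left out. Those with a library left out have no sex covariate. Comparisons between classes have library as a block.

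Tac1 gives substance P and neurokinin A, whose main receptors are NK1 (Tacr1) and NK2 (Tacr2), and Tac3 gives neurokinin B, the ligand of NK3 (Tacr3). Nts gives neurotensin, which acts on Ntsr1 and Ntsr2, and Cartpt gives CART, a peptide first described as a transcript raised by cocaine and amphetamine in the striatum. In the striatum, medium spiny neurons with the dopamine receptor D1 project mainly to the midbrain and carry substance P and dynorphin, while those with D2 project mainly to the pallidum and carry enkephalin. Peptide precursors are cut by prohormone convertases, packed with granins into dense-core vesicles and released on strong firing.

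Sequences before a RefSeq start site are shown first because 3 of the genes carry letters known from activity-responsive promoters in these 250 bases. RefSeq's promoter table (build GRCr8, while the counts were made on another build) held Tac1, Nts and Cartpt. Of the Tac1 window 239 bases lay inside the RefSeq gene model, and the Cartpt window lay wholly inside it. These 2 windows may therefore hold transcribed sequence, and only short stretches of them are shown. The Nts window had 0 bases inside its gene model. The letters were chosen after the windows were seen and were searched on both strands: CRE as TGACGTCA, a looser CRE as TGACNTCA (which contains the first), AP-1 as TGANTCA, a CRE variant as TGCGTCA, the E-box CACGTG, and NBRE as AAAGGTCA. Capitals mark these matches.
Tac1, plus strand, chr4:36645364-36645393: ttccctaaaatTGCGTCAtttcgaacccaa
Tac1, plus strand, chr4:36645499-36645528: tggggagagtgtCACGTGgctctccaggct
Nts, minus strand, chr7:39460889-39461138: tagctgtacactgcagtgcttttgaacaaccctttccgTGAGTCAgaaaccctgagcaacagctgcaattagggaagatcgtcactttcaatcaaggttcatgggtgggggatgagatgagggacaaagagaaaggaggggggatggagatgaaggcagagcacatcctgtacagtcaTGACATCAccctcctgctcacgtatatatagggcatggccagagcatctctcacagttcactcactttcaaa
Cartpt, minus strand, chr2:32991359-32991388: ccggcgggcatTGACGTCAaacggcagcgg
The Tac1 window held TGCGTCA 208 bases and CACGTG 72 bases before the start, the Nts window held TGAGTCA 212 bases and TGACATCA 72 bases before it, and the Cartpt window held TGACGTCA 142 bases before it. Over 33469 RefSeq windows of the same length, 1.59% held TGACGTCA, 8.88% TGACNTCA, 6.34% TGANTCA, 1.66% TGCGTCA, 5.59% CACGTG and 1.24% AAAGGTCA. None of these 3 windows held AAAGGTCA. A match of letters is a description and not a site of binding.

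Nuclei were sorted into classes by gates on the unique molecular identifier counts (UMIs, each 1 captured RNA molecule) of marker genes, and no gate used a peptide gene of the 4. After filters 24843 nuclei remained, with medians of 4363 to 5066 UMIs per nucleus in the 4 libraries and 31484217 to 40737786 UMIs in all per library. Of these nuclei 4502 passed no gate and 360 passed several, and the former held 20.1% to 32.6% of the UMIs of each of the 4 genes. Levels are counts per 1000000 UMIs of the class (CPM), summed within a library. D1-gated nuclei (3656) held Drd1 at 129.2 CPM and Drd2 at 0.8, and D2-gated nuclei (3328) held Drd2 at 811.1 CPM and Drd1 at 2.0. Within D1-gated nuclei, 1006 carried Reln without Htr4, 765 carried Htr4 without Reln and 49 carried patch markers. Casz1-gated nuclei (448) are spiny nuclei with Casz1 and without D2 markers, and Grm8/Chst9-gated nuclei numbered 970. In total 81 barcode sequences occurred in more than 1 library, and the 146 kept nuclei that carried them held at most 0.867% of the UMIs of any of the 4 genes.

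Tac1 was a gene of D1-gated and Casz1-gated nuclei. Its level in Casz1-gated nuclei was 225.8, 371.6, 305.2 and 357.6 CPM, a mean of 315.1 ± 66.0 (SD, n = 4). In D1-gated nuclei it was 152.0, 230.8, 183.0 and 262.8 CPM, a mean of 207.1 ± 49.3. The ranges of these 2 classes overlapped. They were followed by Casz1-gated D2 nuclei (98.3 ± 48.8), Sst/Npy-gated interneurons (79.6 ± 37.1) and Klhl1/Htr7-gated nuclei (31.9 ± 17.9), and each class overlapped with the next in this order. The 49 patch-gated nuclei, too few for a test, held 464.7, 372.3, 388.4 and 530.5 CPM. D2-gated nuclei held 10.4 ± 5.6 CPM, which lies within the range of glia, since oligodendrocyte-gated nuclei held 15.0 ± 6.9 and astrocyte-gated nuclei 11 ± 4.6. Counted per nucleus the classes differed: 3328 D2-gated nuclei, which were deeper, held 278 Tac1 UMIs and 6695 oligodendrocyte-gated nuclei held 180. Of the D2-gated nuclei 7 had 5 or more Tac1 UMIs and the highest held 25, while no oligodendrocyte-gated nucleus held more than 2. The part of free RNA in the D2-gated level was not tested.

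The share of D1-gated nuclei with a Tac1 UMI was 56.1% (exact 95% interval 52.3 to 59.9), 54.9% (51.7 to 58.1), 57.7% (54.6 to 60.8) and 61.8% (58.7 to 64.8). The intervals cover counting error only. D1-gated nuclei of the saline female library were the deepest, with a median of 10251 UMIs against 6987 to 8098 in the other 3. After each nucleus was thinned to 1000 UMIs the shares were 12.9%, 16.7%, 15.7% and 19.5%, and the thinned shares in oligodendrocyte-gated nuclei, whose medians were 1521 to 2007 UMIs, ran from 0.71% to 2.42%.

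Tac3 was high in the Casz1-gated and Grm8/Chst9-gated classes. Casz1-gated nuclei held 105.4, 148.7, 117.7 and 157.6 CPM (132.3 ± 24.8). Grm8/Chst9-gated nuclei held 80.3, 91.3, 125.2 and 139.6 CPM (109.1 ± 27.9). These levels overlapped with each other, and no library of either class fell to the level of the next class, glutamatergic-gated nuclei at 16.4 ± 8.4. D1-gated nuclei held 15.7 ± 1.7 CPM and D2-gated nuclei 4.1 ± 0.8, the latter near the 3.9 ± 0.9 of oligodendrocyte-gated nuclei. Tac3 never reached 10 UMIs in a nucleus of these classes: the highest value was 8, in Casz1-gated and in Klhl1/Htr7-gated nuclei.

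Nts was spread over few nuclei of several classes. D2-gated nuclei held 39.7 ± 19.1 CPM, D1-gated nuclei 26.7 ± 8.5, Klhl1/Htr7-gated nuclei 21.9 ± 12.3 and Sst/Npy-gated nuclei 12.2 ± 14.2, with overlapping ranges between neighbours. Oligodendrocyte-gated nuclei held 2.6 ± 0.6 CPM. In Sst/Npy-gated nuclei the saline libraries held 0 UMIs and the cocaine libraries 10 and 8, too few for the test. A count of 0 there allows up to 11.7 and 8.32 CPM (3 UMIs per library), while the cocaine libraries stood at 21.8 and 26.8 CPM; in this class 17.5% of genes had both cocaine libraries above both saline libraries. Htr4-gated D1 nuclei held 60.2, 68.2, 76.5 and 52.3 CPM, from 69, 157, 172 and 73 of the 102, 267, 240 and 241 Nts UMIs of D1-gated nuclei. The patch-gated nuclei held 38 Nts UMIs in the cocaine male library, up to 23 in 1 nucleus, and 0 in the other 3, where a count of 0 allows up to 18.4, 43 and 40.2 CPM. Few of the nuclei with Nts held much of it. A UMI was seen in 29, 64, 75 and 71 D1-gated nuclei, and 17 nuclei with 10 or more UMIs gave 47.9% to 57.7% of the Nts UMIs of that class in each library. In D2-gated nuclei 19 such nuclei gave 35.4% to 70.0%, and 1 nucleus of the cocaine female library held 100 UMIs.

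Cartpt was a gene of D2-gated and D1-gated nuclei. D2-gated nuclei held 44.2, 54.9, 90.1 and 83.9 CPM (68.3 ± 22.2), and D1-gated nuclei 27.7, 38.0, 51.5 and 49.6 CPM (41.7 ± 11.1). In both classes the 2 male libraries stood above the 2 female libraries. This order was not tested, and the share of all genes that show it was not counted. The ranges of these 2 classes overlapped, and no D1-gated library fell to the next class, Casz1-gated D2 nuclei at 13.1 ± 6.7. Oligodendrocyte-gated nuclei held 4.3 ± 1.9 CPM. A Cartpt UMI was seen in 25.5% to 37.9% of D2-gated nuclei and in 17.0% to 21.9% of D1-gated nuclei of a library, against 0.50% to 1.28% of the shallower oligodendrocyte-gated nuclei.

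**Figure D1:**
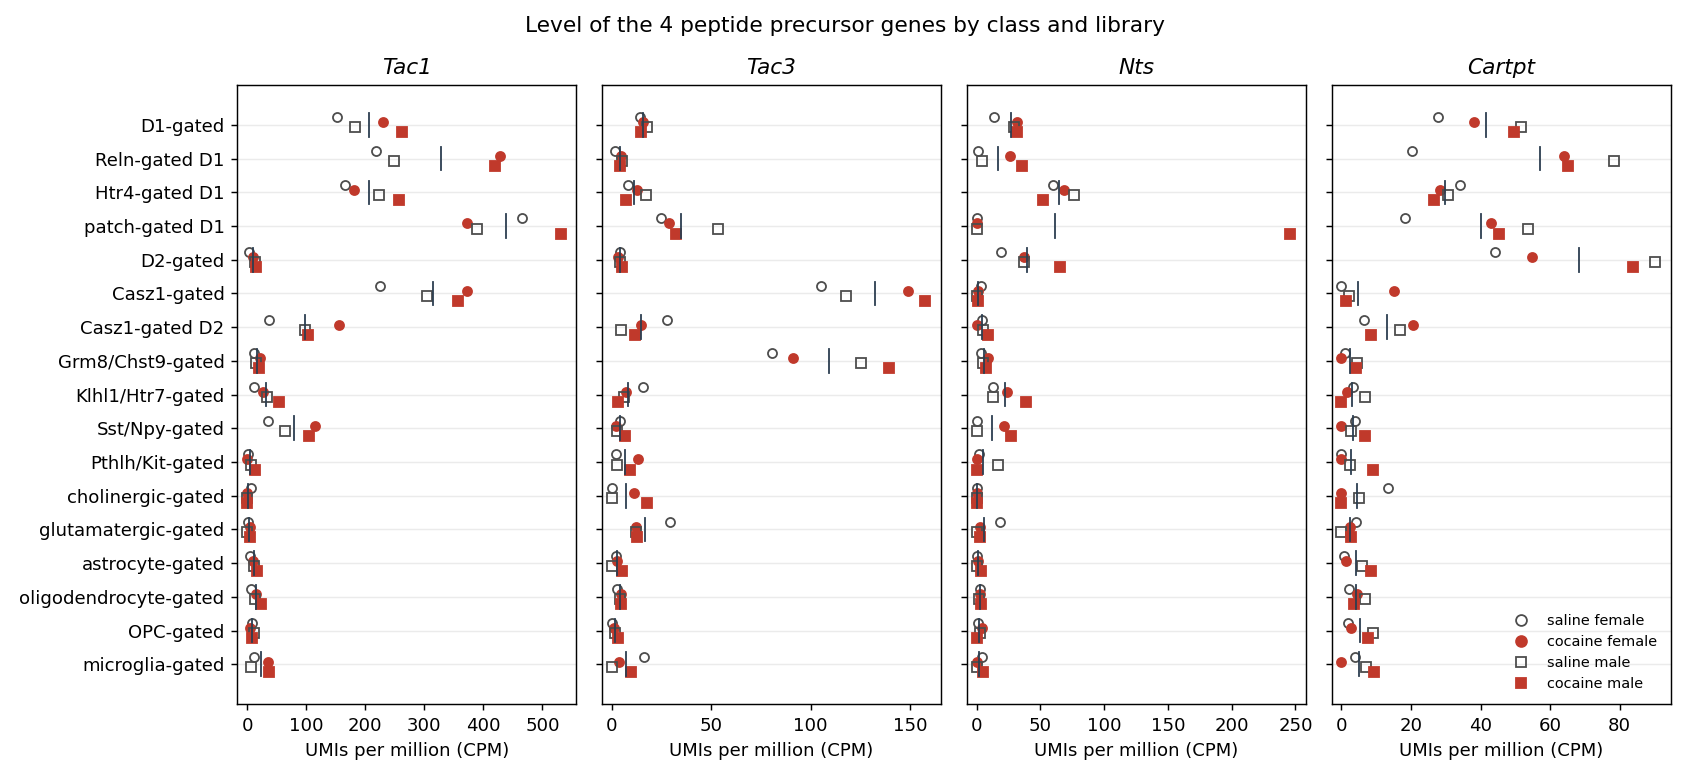
Each panel plots 1 gene, with its level in CPM on the horizontal axis and 17 classes of nuclei on the vertical axis; each point is a library (open for saline, filled for cocaine, circle for female, square for male) and each vertical line is the mean of 4 libraries. Reln-gated, Htr4-gated and patch-gated D1 nuclei are subsets of the D1-gated nuclei. Tac1 is high in D1-gated and Casz1-gated nuclei, Tac3 in Casz1-gated and Grm8/Chst9-gated nuclei, and Nts and Cartpt in D1-gated and D2-gated nuclei.

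All 4 genes differed in level between D1-gated and D2-gated nuclei of the same libraries. Tac1 was higher in D1-gated nuclei by 4.32 ± 0.11 on the log2 scale (SE, edgeR with library as a block, adjusted p = 5.07e-17) and Tac3 by 1.91 ± 0.14 (adjusted p = 2.01e-09). Nts was lower in D1-gated nuclei, with a log2 difference of -0.56 ± 0.10 (adjusted p = 0.000392), and so was Cartpt at -0.72 ± 0.06 (adjusted p = 1.03e-08). Of the 13028 genes tested in this comparison 15.4% passed the same threshold of 0.05. With 1 more marker UMI asked of each class, the Nts difference was -0.40 with an adjusted p of 0.064 in edgeR.

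The D1 subsets divided the 4 genes in pairs. Tac3 was higher in Htr4-gated than in Reln-gated D1 nuclei by 1.46 ± 0.29 on the log2 scale (edgeR, adjusted p = 0.00106) and Nts by 1.91 ± 0.36 (adjusted p = 0.000697). Tac1 was lower in Htr4-gated nuclei, at -0.69 ± 0.12 (adjusted p = 0.000328), and Cartpt at -1.01 ± 0.21 (adjusted p = 0.00152). Here 16.2% of 11167 genes tested passed. In saline, Tac1 stood at 218.7 and 248.2 CPM in Reln-gated and at 165.8 and 224.0 in Htr4-gated nuclei. In cocaine it stood at 428.0 and 420.0 against 180.4 and 257.3. Cartpt in saline stood at 20.4 and 78.3 against 34.0 and 30.7, so the sexes went opposite ways. Nts in saline stood at 1.1 and 4.5 against 60.2 and 76.5, and Tac3 at 1.8 and 5.0 against 7.9 and 17.3. Saline was not tested alone. The Cartpt difference was -0.69 with an adjusted p of 0.132 when the gates were stricter. Between the 2 classes with most Tac3, a comparison added once the levels were known, Casz1-gated nuclei exceeded Grm8/Chst9-gated nuclei by 4.23 ± 0.12 in Tac1 (adjusted p = 1.2e-26) and by 0.38 ± 0.11 in Tac3 (adjusted p = 0.00916), and 26.4% of 9749 genes passed. Without the cocaine female library the Tac3 difference was 0.23 with an adjusted p of 0.213.

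Cocaine libraries held more Tac1 than saline libraries in D1-gated nuclei, with a log2 difference of 0.54 over all of them and 0.87 among those with Reln. In all D1-gated nuclei 1104 and 1482 Tac1 UMIs were counted in saline and 1948 and 2007 in cocaine. The mean level was 167.5 ± 21.9 CPM in saline and 246.8 ± 22.6 in cocaine (SD, n = 2 libraries each), and the groups did not overlap, as for 17.1% of the 12876 genes tested, with cocaine above saline. The log2 difference was 0.54 ± 0.07 (SE, edgeR's quasi-likelihood test, Benjamini-Hochberg adjusted p = 0.0207). In this class 0.21% of genes passed the threshold. The call was not kept with DESeq2 (adjusted p = 0.126), with clusters in place of gates (0.0563), without the sex covariate (0.282) or without the cocaine male library (0.315).

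In Reln-gated D1 nuclei Tac1 stood at 218.7 and 248.2 CPM in saline and at 428.0 and 420.0 CPM in cocaine. The log2 difference was 0.87 ± 0.10 (edgeR, adjusted p = 4.28e-15), in a class in which 1.97% of 10664 genes passed and 19% had both cocaine libraries above both saline libraries. This fit drew every gene fully to 1 shared trend of spread (an infinite prior), on which the size of its p-values depends. DESeq2 gave 0.86 with an adjusted p of 4.02e-05, and the call held under each of the 12 alternatives, with values from 0.38 to 0.96. In Htr4-gated D1 nuclei Tac1 stood at 165.8 and 224.0 CPM in saline and 180.4 and 257.3 in cocaine, groups that overlapped (log2 difference 0.16 ± 0.11, adjusted p = 0.904, where 0.0384% of genes passed). The difference between the effects in the Reln-gated and Htr4-gated nuclei was 0.73 ± 0.17 and did not pass (edgeR, adjusted p = 0.174). It passed with stricter gates (0.87, adjusted p = 0.00908) and without the cocaine male library (1.01, adjusted p = 0.000642).

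Tac1 was measured in glia in the same way. Oligodendrocyte-gated nuclei held 6.8 and 14.0 CPM in saline and 15.8 and 23.6 in cocaine (log2 difference 0.92 ± 0.25, edgeR adjusted p = 0.0691). This glial difference passed under 4 of 12 alternatives: without TMM (adjusted p = 0.0169), without the filter on low counts (0.0293), with stricter gates (0.0288) and with clusters in place of gates (0.0373). Astrocyte-gated nuclei held 5.7 and 10.9 CPM in saline and 10.5 and 16.9 in cocaine, groups that overlapped, and oligodendrocyte-precursor-gated nuclei held 8.0 and 12.0 in saline and 5.3 and 9.0 in cocaine. D2-gated nuclei held 2.8 and 12.9 in saline and 10.3 and 15.8 in cocaine (0.78 ± 0.25, adjusted p = 0.229). The part of free RNA in the D1-gated difference was not tested. Without the saline male library the D2-gated value was 2.16 (adjusted p = 1.11e-07), and without the saline female library it was -0.03. Tac1 was tested in 11 classes and its estimate was above 0 in all 11, with 2 past the threshold, both of them D1 gates. Reln-gated and Htr4-gated nuclei are subsets of the D1-gated ones, and all 11 classes come from the same libraries. The share of all genes above 0 in every class was not counted. Of all genes tested, 0.905% passed in oligodendrocyte-gated, 0.717% in astrocyte-gated, 0.429% in Casz1-gated D2, 0.288% in D2-gated, 0.196% in Casz1-gated, 0.175% in Sst/Npy-gated, 0.132% in Grm8/Chst9-gated and 0.0786% in Klhl1/Htr7-gated nuclei. Outside the D1 gates, the Tac1 estimates were 1.09 ± 0.31 in Sst/Npy-gated (edgeR, adjusted p = 0.253) and 0.95 ± 0.33 in Klhl1/Htr7-gated nuclei (adjusted p = 0.611). They were 0.96 ± 0.27 in Casz1-gated D2 nuclei (adjusted p = 0.072) and 0.46 ± 0.15 in Casz1-gated nuclei (adjusted p = 0.242). The latter pair passed without a library: Casz1-gated D2 nuclei without the cocaine male library (1.22, adjusted p = 0.0481; also without doublet removal, adjusted p = 0.00993) and Casz1-gated nuclei without the saline male library (0.70, adjusted p = 0.00227). In Grm8/Chst9-gated nuclei the estimate was 0.66 ± 0.34 (adjusted p = 0.772). With clusters in place of gates edgeR gave 0.79 (adjusted p = 0.0445), but for a wider class. The cluster matched to this gate held 1955 nuclei, with Casz1 among its leading genes. Its Tac1 level was 180.7 CPM, against 17.6 ± 4.7 in the gated nuclei.

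Nuclei with much Tac1 were more numerous in the cocaine libraries. The split is made on Tac1 itself, so a rise in any nucleus can move it over the limit, and the values of the rest do not show where a rise took place. Nuclei with 10 or more Tac1 UMIs numbered 15 and 11 among D1-gated nuclei in saline and 36 and 33 in cocaine. They held 19.7% and 10.8% of the Tac1 UMIs of the class in saline and 44.9% and 31.1% in cocaine, and the level given by the other D1-gated nuclei overlapped between the groups, at 122.0 and 163.2 CPM against 127.2 and 181.1. In Reln-gated D1 nuclei they numbered 10 and 5 in saline and 24 and 19 in cocaine, and held 21.0% and 16.9% of the UMIs against 64.7% and 41.9%. The highest single nucleus there held 17 and 22 UMIs in saline and 83 and 59 in cocaine. The level given by all other Reln-gated nuclei was 172.8 and 206.3 CPM in saline and 151.2 and 243.9 in cocaine, groups that overlapped. With at most 10 UMIs of a gene counted per nucleus, a setting added once the values were known, the Tac1 difference was 0.38 in Reln-gated nuclei (adjusted p = 0.0136) and 0.28 in D1-gated nuclei (adjusted p = 0.269).

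**Figure D2:**
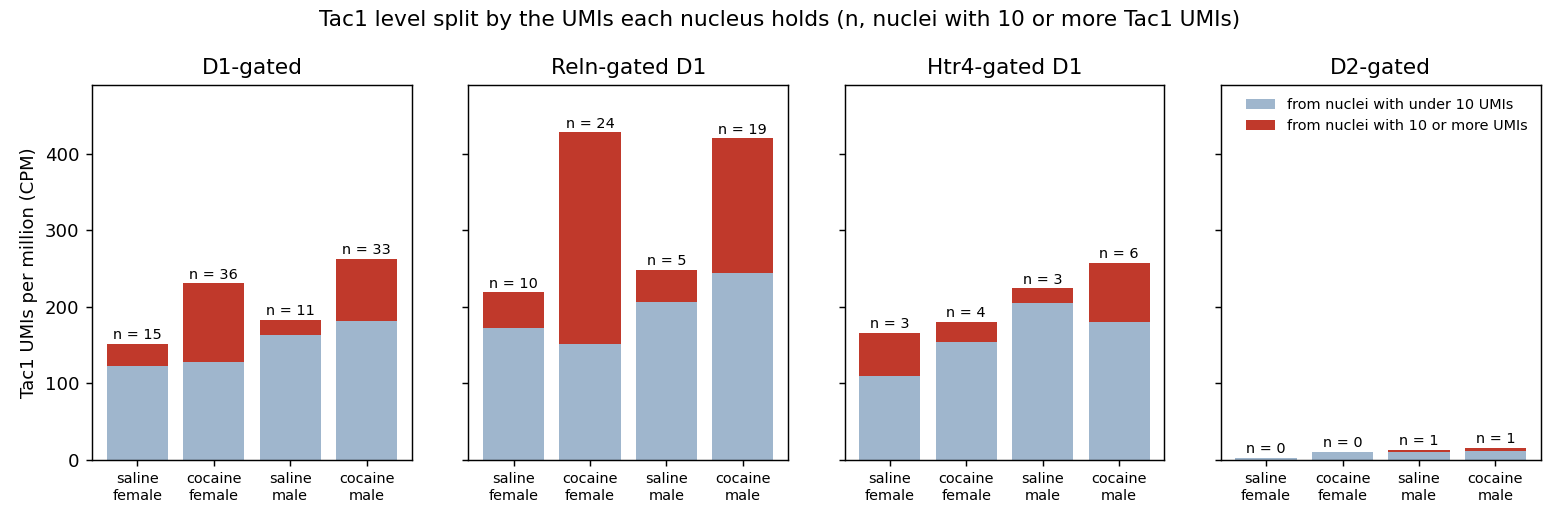
Bars show the Tac1 level (CPM, from 0) of each library in 4 gates, split into UMIs from nuclei with under 10 Tac1 UMIs (blue) and with 10 or more (red); n above each bar is the number of the latter nuclei. In Reln-gated D1 nuclei the blue part overlaps between treatments (151.2 to 243.9 CPM), while the red part is larger in both cocaine libraries, with 24 and 19 nuclei against 10 and 5.

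The nuclei with much Tac1 also held transcripts of activity-dependent genes, given here as a description since the nuclei were split by a measured value. Nr4a3, an orphan nuclear receptor gene switched on early after neuronal activity, had a UMI in 34 of 36 such D1-gated nuclei of the cocaine female library (94.4%), against 6.6% of the other D1-gated nuclei. In the cocaine male library the shares were 69.7% and 6.2%, while in saline they were 60.0% and 8.9% for females and 72.7% and 4.4% for males. UMIs of 16 immediate-early genes (Scg2 among them) together made 112.7 and 80.1 per 10000 UMIs in these nuclei of the cocaine libraries, against 10.1 and 9.9 in the others. In the saline libraries the values were 39.9 and 31.5 against 8.6 and 7.8. In all 4 libraries the nuclei with much Tac1 had a higher median depth than the rest, by values such as 9065.5 against 8063 UMIs in the cocaine female library.

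Nts showed the largest difference of the 4 genes, in Reln-gated D1 nuclei, on few molecules. Saline libraries held 3 and 8 Nts UMIs there and cocaine libraries 61 and 80, which is 1.1 and 4.5 CPM against 26.3 and 35.2. The log2 difference was 3.58 ± 0.34 (edgeR, adjusted p = 4.93e-22), with the same infinite prior as above. DESeq2 gave 3.66 and set no adjusted p. In cocaine 2 nuclei of the female and 1 nucleus of the male library held 10 or more UMIs, with up to 22 and 64, while no saline nucleus held more than 2. Without these nuclei the levels were 1.1 and 4.5 CPM in saline and 9.1 and 7.0 in cocaine, groups that did not overlap. They rest on 3 and 8 UMIs against 21 and 16. With all nuclei counted, 19% of genes in this class had both cocaine libraries above both saline libraries. At most 10 UMIs per nucleus gave 2.56 (adjusted p = 1.42e-06), and the lowest value of the 11 alternatives with an adjusted p, 1.73 with clusters in place of gates, also passed.

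In Htr4-gated D1 nuclei, where Nts stood higher in saline, the treatment groups overlapped. The levels were 60.2 and 76.5 CPM in saline and 68.2 and 52.3 in cocaine (log2 difference -0.19 ± 0.19, edgeR adjusted p = 0.942). With stricter gates the value was -1.30 with an adjusted p of 3.39e-06. The effect in Reln-gated nuclei exceeded that in Htr4-gated nuclei by 3.73 ± 0.42 (edgeR, adjusted p = 0.000678), a comparison that 0.0269% of 11167 genes passed and that was added after the separate fits were seen. With at most 10 UMIs per nucleus it was 2.46 with an adjusted p of 0.115. Over all D1-gated nuclei Nts stood at 14.0 and 29.6 CPM in saline and 31.6 in each cocaine library (0.55 ± 0.20, adjusted p = 0.485), and the value was 1.15 without the saline male library (adjusted p = 0.00666).

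In D2-gated nuclei Nts stood at 19.2 and 36.8 CPM in saline and at 37.2 and 65.5 CPM in cocaine. The groups were separated by 0.4 CPM, a separation that 16.8% of 12519 genes showed, and within each sex the cocaine library was higher, with log2 ratios of 0.95 and 0.83. The fitted difference was 0.84 ± 0.11 (edgeR, adjusted p = 0.000129), where 0.288% of genes passed. Without the sex covariate the adjusted p was 0.986, and DESeq2 gave 1. The value was 0.43 without the saline female library, 0.39 without the cocaine male library and 1.18 without the cocaine female library (adjusted p = 0.603, 1 and 0.165). Nuclei with 10 or more Nts UMIs numbered 1 in each saline library and 4 and 13 in the cocaine female and male libraries. All 19 held Nr4a3, against 5.5% to 8.4% of the other D2-gated nuclei, and in the cocaine male library their median depth was 11008 UMIs against 6472. In D1-gated nuclei Nr4a3 was seen in 2 of 2, 4 of 5, 1 of 5 and 4 of 5 nuclei with as much Nts, and in the Htr4-gated ones in 0 of 4 in the saline male library. The effect in D1-gated nuclei minus that in D2-gated nuclei was -0.28 ± 0.21 for Nts (edgeR, adjusted p = 0.879) and -0.18 ± 0.32 for Tac1 (adjusted p = 0.958), and 0.0384% of 13028 genes passed this test. Klhl1/Htr7-gated nuclei held Nts at 12.5 and 12.9 CPM in saline and 23.6 and 38.6 in cocaine. These groups did not overlap, as for 17.8% of 10183 genes with cocaine higher. The difference was 1.12 ± 0.39 (edgeR, adjusted p = 0.611).

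Cartpt, named for a response to psychostimulants, differed with treatment in Reln-gated D1 nuclei in the fit only. Its levels there were 20.4 and 78.3 CPM in saline and 63.9 and 65.2 in cocaine, so that the groups overlapped and the sexes went opposite ways, with log2 ratios of 1.64 in females and -0.26 in males. The log2 difference was 0.55 ± 0.16 (edgeR, adjusted p = 0.040). Of 12 alternatives 1 kept the call, without the saline male library (1.66, adjusted p = 5.64e-09), and without the saline female library the value was -0.28. In D1-gated nuclei the difference was 0.16 ± 0.13 (adjusted p = 0.763), in Htr4-gated nuclei -0.24 ± 0.22 (adjusted p = 0.922) and in D2-gated nuclei 0.03 ± 0.10 (adjusted p = 0.95). Without the saline male library the D2-gated value was 0.60 (adjusted p = 0.0101). The Cartpt effect in Reln-gated minus that in Htr4-gated nuclei was 0.55 ± 0.40 (adjusted p = 0.903), and 1.96 without the saline male library (adjusted p = 0.00921).

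Tac3 passed the threshold in none of the 7 classes in which it was tested. In Casz1-gated nuclei, where it was high, it stood at 105.4 and 117.7 CPM in saline and 148.7 and 157.6 in cocaine, groups that did not overlap, as for 16.8% of 8695 genes (log2 difference 0.44 ± 0.18, unadjusted p = 0.0129 and adjusted p = 0.541 in edgeR). In Grm8/Chst9-gated nuclei the difference was 0.14 ± 0.15 (adjusted p = 0.913) and in D1-gated nuclei -0.07 ± 0.15 (adjusted p = 0.924). Over the 4 genes and 15 classes, 28 tests were possible after the filter on low counts, and 5 passed, all with cocaine higher.

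**Figure D3:**
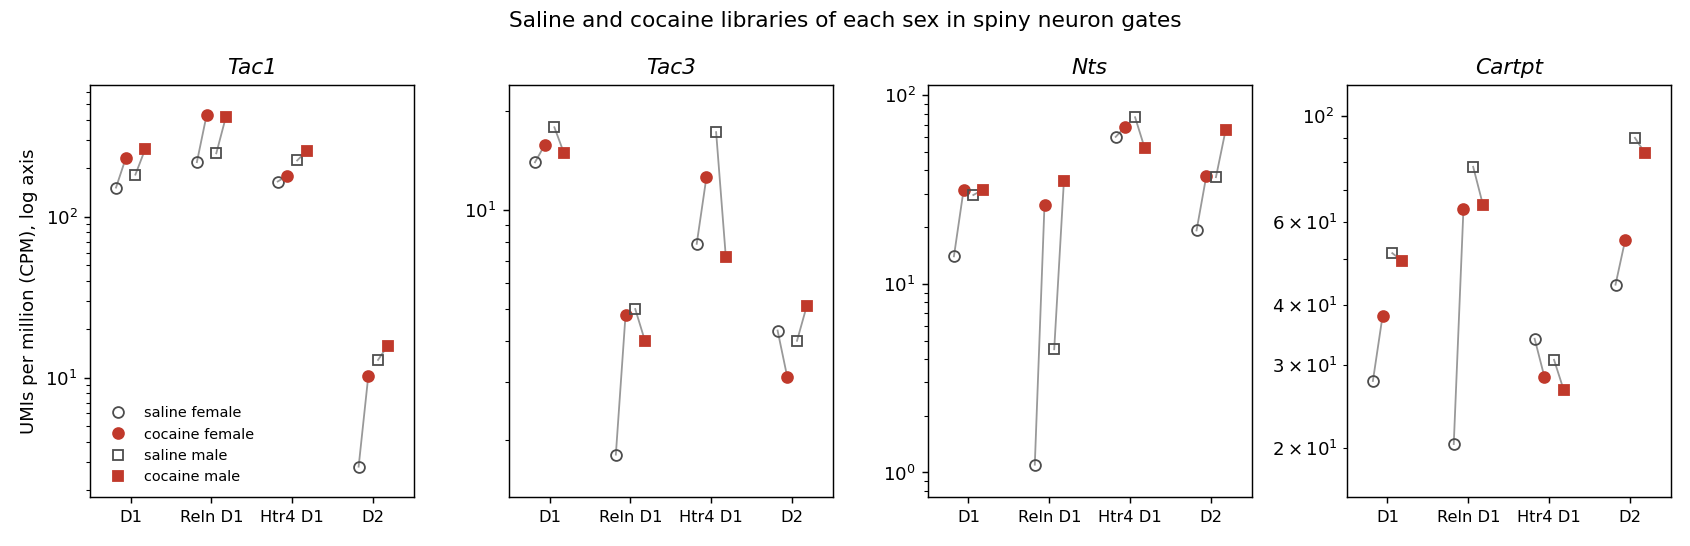
Each panel plots 1 gene, with its level in CPM on a log axis and 4 gates on the horizontal axis; lines join the saline (open) and cocaine (filled) library of females (circles) and males (squares). In Reln-gated D1 nuclei both lines rise steeply for Nts (1.1 to 26.3 and 4.5 to 35.2 CPM) and rise for Tac1, while for Cartpt they go opposite ways.

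**Figure D4:**
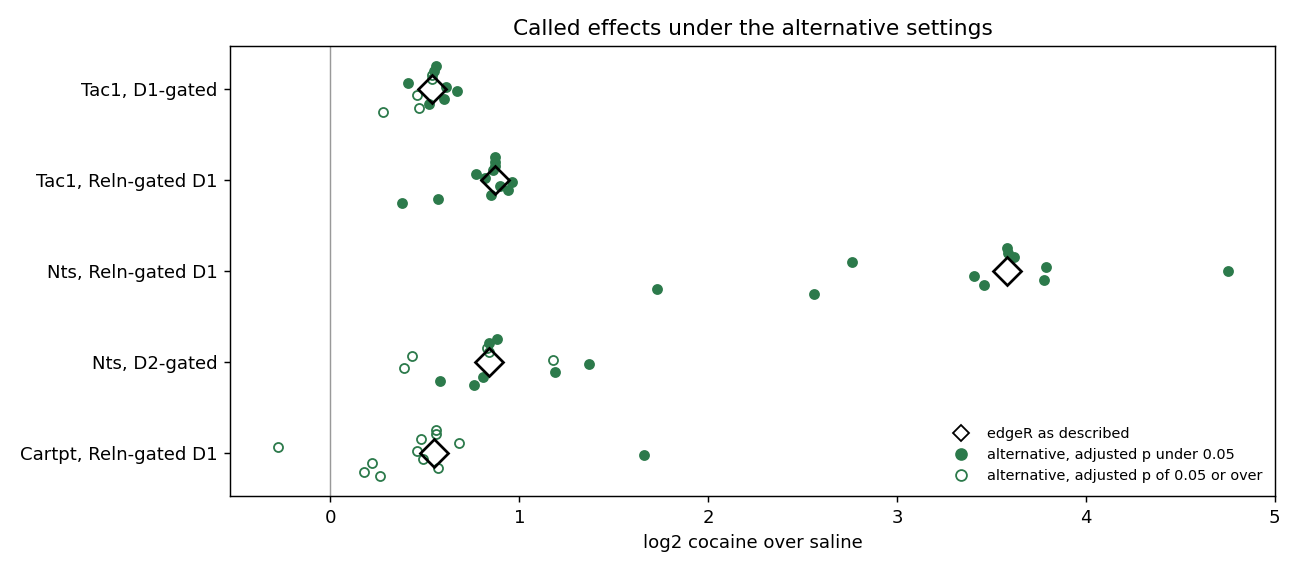
The log2 difference of cocaine over saline is plotted for the 5 results past the threshold, as fitted (diamond) and under each alternative setting with an adjusted p (circles, filled where that p was under 0.05). Tac1 in Reln-gated D1 nuclei spans 0.38 to 0.96 and Nts there 1.73 to 4.75 with every circle filled, while Cartpt there has 1 filled circle at 1.66.

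Co-detection within nuclei was compared after thinning each nucleus to 3000 UMIs, as the number of nuclei with both genes over the number expected if the genes were seen independently in a library. In D2-gated nuclei Nts and Cartpt were seen together more often than expected in all 4 libraries, with ratios of 4.14, 2.31, 2.38 and 2.11 and 66 nuclei against 27.6 expected. In D1-gated nuclei Tac1 and Tac3 were seen together less often than expected in all 4, at 0.65, 0.60, 0.87 and 0.60, with 37 nuclei against 53.6. Within the D1 subsets the numbers for this pair were 6 against 6.3 in Reln-gated and 8 against 9.9 in Htr4-gated nuclei. Casz1-gated nuclei gave 51 against 56.4 and Grm8/Chst9-gated nuclei 11 against 9.0. Tac1 and Cartpt in D1-gated nuclei gave 1.13 to 1.57, and Tac1 with Pdyn, the dynorphin precursor, gave 1.13 to 1.31. Nuclei with Nts in the Htr4-gated D1 subset also carried Tac1 more often than expected, at 1.5 to 1.83. Without thinning the ratios of the summed numbers were 1.70 for Nts and Cartpt in D2-gated and 0.63 for Tac1 and Tac3 in D1-gated nuclei, and they were 1.06 for Tac1 and Cartpt, 1.08 for Tac1 and Pdyn, and 1.22 for Tac1 and Nts in Htr4-gated nuclei. Nuclei of a library share its free RNA, and these ratios carry no test.

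Each receptor had its own order of classes. Tacr1, the substance P receptor, was at 921.8 CPM in Sst/Npy-gated and 688.0 CPM in cholinergic-gated nuclei (4 libraries summed), against 3.8 in D1-gated and 0.1 in D2-gated nuclei. Tacr3 was low throughout, at most 18.5 CPM in Grm8/Chst9-gated nuclei, which also held Tac3, and within the D1 subsets it was at 11.4 CPM in Reln-gated and 0.7 in Htr4-gated nuclei. Tacr2 had 5 UMIs in all kept nuclei. Ntsr1 reached 10.9 CPM in Sst/Npy-gated nuclei, and Ntsr2 was an astrocyte gene here, at 265.9 CPM in astrocyte-gated nuclei and under 5 CPM in every other class. The sorting receptors Sort1 and Sorl1, which bind neurotensin among other ligands, peaked at 582.5 CPM in oligodendrocyte-gated and 163.5 CPM in glutamatergic-gated nuclei, and stood at 153.8 and 84.3 CPM in D1-gated and at 166.1 and 105.4 CPM in D2-gated nuclei. Gpr160, proposed as a CART receptor, reached 28.0 CPM in microglia-gated nuclei. Of these 8 genes 5 could be tested for cocaine in D1-gated nuclei, 3 in Reln-gated, 2 in Htr4-gated and 3 in D2-gated nuclei, and none passed.

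**Figure D5:**
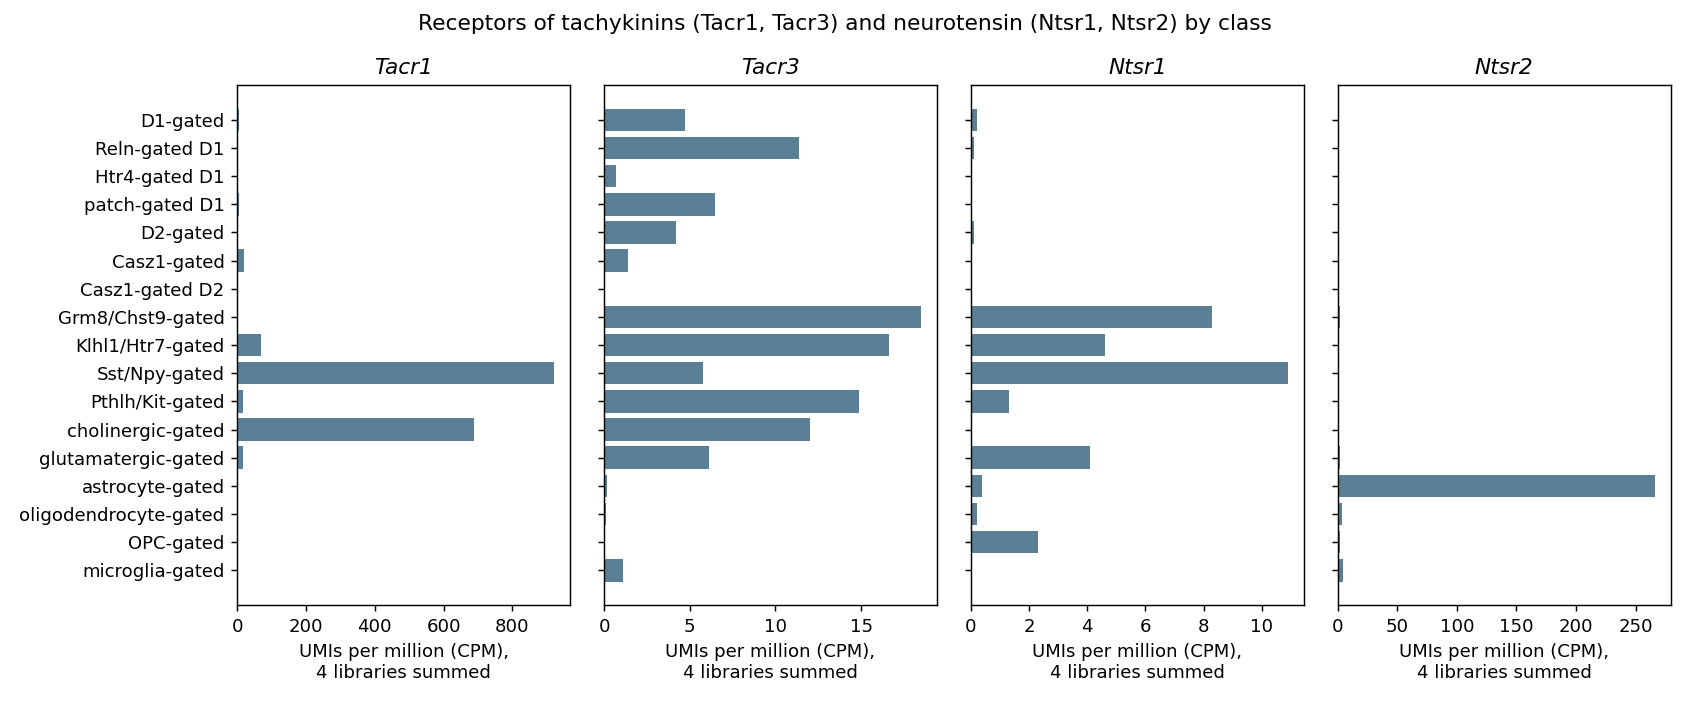
Bars show the level of Tacr1, Tacr3, Ntsr1 and Ntsr2 (CPM, from 0, each panel with its own scale) in 17 classes, with the 4 libraries summed and so without error bars. Tacr1 stands out in Sst/Npy-gated (921.8 CPM) and cholinergic-gated nuclei (688.0 CPM), and Ntsr2 in astrocyte-gated nuclei (265.9 CPM).

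Genes of peptide processing and breakdown were counted over a list of 18, with no test of the list. In D1-gated nuclei, where 0.21% of all genes passed, 2 of the 18 tested rose and none fell: Pcsk1, a prohormone convertase, by 1.35 ± 0.13 on the log2 scale (edgeR, adjusted p = 0.00461; 12.0 ± 3.56 CPM in saline and 30.4 ± 6.54 in cocaine), and Scg2, a granin, by 0.61 ± 0.09 (adjusted p = 0.0215). The call of neither gene was kept without the sex covariate, where no gene of D1-gated nuclei passed. The median of the list was 0.15, against 0.001 over all genes tested. It was 0.23 in Reln-gated, -0.02 in Htr4-gated and 0 in D2-gated nuclei. The list was chosen with earlier results of these data known. In Reln-gated nuclei, where 1.97% of all genes passed, 4 of 18 rose: Scg2 by 1.2 ± 0.12 (adjusted p = 1.58e-20), Pcsk1 by 1.62 ± 0.18 (adjusted p = 2.30e-16), the carboxypeptidase Cpe by 0.37 ± 0.10 (adjusted p = 0.0159) and the endothelin-converting enzyme Ece1 by 0.58 ± 0.17 (adjusted p = 0.045). In Htr4-gated nuclei, where 0.0384% of all genes passed, none of 17 tested passed, and Pcsk1 and Scg2 had estimates of 0.48 ± 0.62 and 0.02 ± 0.20; the difference between these subsets was not tested for the list. In D2-gated nuclei, where 0.288% of all genes passed, Pcsk1 rose by 0.98 ± 0.15 (adjusted p = 0.000815) and was the only one of 18 to pass. Elsewhere Pcsk1 rose in Casz1-gated nuclei by 4.06 ± 0.60 (edgeR, adjusted p = 5.33e-08, with 1.69 ± 0.705 CPM in saline and 31.3 ± 13 in cocaine). This fit also had the infinite prior, and with DESeq2 no gene of the class passed. In Sst/Npy-gated nuclei Vgf, a granin-like peptide precursor, rose by 1.33 ± 0.22 (adjusted p = 0.0116) and Scg2 by 1.16 ± 0.22 (adjusted p = 0.0343). In oligodendrocyte-gated nuclei Scg5 rose by 0.77 ± 0.14 (edgeR, adjusted p = 0.00148) and Scg2 had an estimate of 0.42 ± 0.26 (adjusted p = 0.638). The Scg5 call was not kept without the sex covariate, where no gene of these nuclei passed. The peptidases that break the peptides down, Mme (neprilysin), Ace, Thop1, Nln and Prep, did not pass in those of these 4 classes where they were tested, with values from -0.57 to 0.47.

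Among the 14 other peptide precursors, Penk, the enkephalin precursor, rose in D1-gated nuclei by 0.86 ± 0.13 (edgeR, adjusted p = 0.0356; 13.4 ± 7.28 CPM in saline and 24.0 ± 11.6 in cocaine) and in Reln-gated nuclei by 1.43 ± 0.32 (adjusted p = 0.00122). It was 1 of 6 and 1 of 2 precursors tested there. The D1-gated levels overlapped between treatments, from 59 and 149 Penk UMIs in saline and 133 and 250 in cocaine. Penk also rose in Casz1-gated D2 nuclei by 1.63 ± 0.42 (adjusted p = 0.032), in Grm8/Chst9-gated nuclei by 0.57 ± 0.12 (adjusted p = 0.0207) and in oligodendrocyte-gated nuclei by 0.70 ± 0.17 (adjusted p = 0.0293), and the part of free RNA in the D1-gated values was not tested. Without the sex covariate no gene passed in D1-gated, Grm8/Chst9-gated or oligodendrocyte-gated nuclei, so these Penk calls were not kept. With DESeq2 none passed in Grm8/Chst9-gated nuclei, and the Casz1-gated D2 fit had the infinite prior. In D2-gated nuclei, where Penk was at 439.7 CPM, the difference was 0.21 ± 0.08 (edgeR, adjusted p = 0.399). Pdyn stood at 48.8 CPM in D1-gated nuclei and had a difference of 0.15 ± 0.11 (adjusted p = 0.729). Sst and Npy reached 1282.3 and 1853.1 CPM in the nuclei gated on them, and Pnoc 60.4 CPM in the same nuclei. Cck peaked at 64.5 CPM in glutamatergic-gated nuclei, Trh at 16.3 in Klhl1/Htr7-gated nuclei and Adcyap1 at 5.5 in glutamatergic-gated nuclei. Among the gated classes Vip was highest in Pthlh/Kit-gated nuclei, at 5.8 CPM. These held 9 of the 140 Vip UMIs of kept nuclei, and most of the 140 lay outside the gated classes. Crh, Gal, Grp, Nmb and Tac4, the third tachykinin gene, stayed at or below 3.5 CPM in every class.

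The genes most like each member over the 14 classes other than the D1 subsets were found by Pearson correlation of log2(CPM + 1), among genes with at least 100 UMIs. Classes share libraries and free RNA, and the values are a description. Tac1 was most like Il20ra (r = 0.860), Tmem114 (0.775) and Slc35d3 (0.755). Tac3 was most like Foxp2 (0.898), Gpr26 (0.832) and Stc1 (0.814). Nts was most like Tjp3 (0.847), Fst (0.842) and Kitlg (0.840), and Cartpt was most like Galntl5 (0.945), Zdhhc19 (0.920) and Bik (0.911). These last genes were near the floor, with 140, 192 and 105 UMIs in all kept nuclei. They peaked at 2.0 and 2.6 CPM in D1-gated and 1.5 CPM in D2-gated nuclei. Tmem114 had 123 UMIs.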

How the data were processed

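Single-nucleus RNA of 4 pooled libraries was analysed from the matrices the authors deposited, which hold whole UMI counts per gene and nucleus, not normalized. Counts were made with Cell Ranger 6.1.2 per the file headers, on rn7 per the submitters' processing notes; for the annotation and the use of strand the sources used here name nothing, so reads of overlapping genes cannot be told apart. Barcodes under 200 genes or over 5% mitochondrial UMIs were dropped, and 1381 putative doublets of 26224 nuclei (Scrublet in scanpy 1.11.5, 0.8% per 1000 nuclei) removed.

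Classes were gated on marker UMIs per nucleus: spiny nuclei needed at least 3 UMIs of general markers per 1000 UMIs and 1 GABAergic UMI; D1 and D2 gates needed 2 UMIs of their own markers and at most 1 of the other's; D1 subsets needed 2 UMIs of Reln or Htr4 and at most 1 of the other. UMIs were summed per class and library, and 15 classes, those holding 25 or more nuclei per library, were tested with edgeR 4.0.16 (quasi-likelihood, TMM, filterByExpr, R 4.3.3) on treatment with sex as a covariate, which leaves 1 residual degree of freedom, moderated across genes, and adjusted by Benjamini-Hochberg over all genes of the class at 0.05. Comparisons between classes used library as a block. The fits were first tested on simulated counts.

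The members, lists and tests were chosen with earlier results of these data known. Named are the 4 members, receptors and other precursors with their levels, and processing genes that passed in D1-gated or D2-gated nuclei; other processing genes were named after their values were seen. Alternatives were DESeq2 1.42.0, no TMM, no filter, no sex covariate, each library left out, stricter gates, Leiden clusters (leidenalg 0.10.2), no doublet removal and a cap of 10 UMIs. Treatment fits with a library left out had no sex covariate.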

Additional observations from a re-analysis of the deposited data

Results flagged for a closer look

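The cocaine effect on Nts differed between D1 subsets: it was 3.73 larger on the log2 scale in Reln-gated than in Htr4-gated nuclei by a test of the difference itself, which was lost with at most 10 UMIs counted per nucleus.

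In the D1, Reln, Htr4 and D2 gates, the only classes screened for this, the cocaine library was in 8 cases above the saline library in one sex and below it in the other. Each value below is a log2 ratio of 1 library to 1 library, with 0.5 added to each count, and the difference between the sexes was not tested. Cartpt in Reln-gated D1 nuclei stood at 1.64 in females and -0.26 in males, in all D1-gated nuclei at 0.46 and -0.05, and in D2-gated nuclei at 0.31 and -0.10. Tac3 stood at 0.16 in females and -0.26 in males in D1-gated nuclei, at 1.31 and -0.34 in Reln-gated, at 0.63 and -1.22 in Htr4-gated, and at -0.46 and 0.33 in D2-gated nuclei. Nts in Htr4-gated D1 nuclei stood at 0.17 in females and -0.54 in males.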

How the results depend on the processing

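The labels carry no replicate numbers, and libraries pair by sex alone: the sex covariate is that pairing, and the setting without it gives the unpaired fit. Few UMIs per library limit Nts and Cartpt, which passed the filter on low counts in 5 classes each, and Tac3, which passed in 7. Fits with a library left out assume that a lone sample varies like the others. Those of treatment also had no sex covariate, so the loss of the library and of the covariate cannot be told apart. In these fits the range over left-out libraries was 0.77 to 0.96 for Tac1 and 2.76 to 4.75 for Nts in Reln-gated D1 nuclei, and all 8 of these fits passed.

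Log2 differences of cocaine over saline that changed side or sign follow, and for each the cause was not tested unless the setting's construction gives it. Tac1 in D1-gated nuclei was 0.54 without the sex covariate, 0.54 with DESeq2, 0.47 with clusters and 0.28 with at most 10 UMIs per nucleus, none past the threshold, and 0.41 to 0.67 over left-out libraries. Cartpt in Reln-gated nuclei did not pass without TMM (0.56), without the filter on low counts (0.56), without the sex covariate (0.48), with DESeq2 (0.68), stricter gates (0.22), no doublet removal (0.57), clusters (0.18) or the cap (0.26), and ranged from -0.28 to 1.66. Nts in D2-gated nuclei did not pass without the sex covariate (0.83) or with DESeq2 (0.84), and ranged from 0.39 to 1.37. Nts in D1-gated nuclei passed without the filter (0.55) and ranged from 0.08 to 1.15. Tac1 in D2-gated nuclei passed without the filter (0.79) and with clusters (0.93), and ranged from -0.03 to 2.16. The cluster setting pooled 2 clusters here. Cluster 1 (3465 nuclei) held Tac1 at 7.5 CPM, and cluster 13 (363 nuclei), with Casz1 among its leading genes, held it at 118.4 CPM. Nts in Htr4-gated nuclei was -1.30 with stricter gates (past the threshold), 0.59 with clusters and 0.04 with the cap, and ranged from -0.42 to 0.03. Tac1 in oligodendrocyte-gated nuclei passed without TMM (0.97), without the filter (0.90), with stricter gates (0.93) and with clusters (0.90).

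Values that changed sign without passing were Cartpt with stricter gates in D1-gated nuclei (-0.02), Cartpt with clusters in Htr4-gated nuclei (0.23), Tac3 without doublet removal in D2-gated nuclei (0.09), and Cartpt in oligodendrocyte-gated nuclei without TMM (0.04) or doublet removal (0.70). Over left-out libraries Tac3 ranged from -0.24 to 0.11 in D1-gated, -0.21 to 1.24 in Reln-gated, -0.93 to 0.40 in Htr4-gated, -0.45 to 0.23 in D2-gated and -0.20 to 0.49 in Grm8/Chst9-gated nuclei. Cartpt ranged from -0.25 to 0.64 in D1-gated, -0.43 to 0.60 in D2-gated and -0.77 to 0.76 in oligodendrocyte-gated nuclei. Tac1 ranged from -0.13 to 0.38 in Htr4-gated and -0.02 to 1.60 in Klhl1/Htr7-gated nuclei.

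With stricter gates the Nts level of D1-gated minus D2-gated nuclei was -0.40 and the Cartpt level of Htr4-gated minus Reln-gated nuclei -0.69, neither past the threshold. The effect in D1-gated minus D2-gated nuclei was -0.02 for Tac3 without TMM and -0.08 for Cartpt with stricter gates, and over left-out libraries -1.48 to 0.45 for Tac1, -0.35 to 0.43 for Tac3 and -0.67 to 0.15 for Nts. The effect in Reln-gated minus Htr4-gated nuclei was 0.87 for Tac1 with stricter gates (past the threshold) and 2.46 for Nts with the cap (not past), and ranged from 0.42 to 1.01 for Tac1 and -0.12 to 1.96 for Cartpt. Tac3 in Casz1-gated minus Grm8/Chst9-gated nuclei ranged from 0.23 to 0.51. Of the 28 tests 5 passed as described, 2 without the sex covariate, 1 with DESeq2, 3 with the cap and 3 to 9 over left-out libraries. Over all genes, the number that passed ran from 0 to 193 in D1-gated (27 as described), 15 to 210 in Reln-gated (210), 1 to 125 in D2-gated (36) and 0 to 177 in Htr4-gated nuclei (4).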

Other observations

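Clusters made without the 4 genes hold a group that the gates do not single out. Cluster 14 (315 nuclei, median 2918 UMIs) was led by Adamtsl1, Stac, Lgr6 and the dopamine receptor gene Drd3, and was left unnamed. It held Tac1 at 149.2, 367.1, 351.4 and 481.4 CPM and Cartpt at 58.6, 283.8, 94.4 and 104.2 CPM (order of libraries as above), on 11 to 119 UMIs each, and Drd3 at 402.7 CPM. Cluster 13, led by Drd2 and with Casz1 among its leading genes (363 nuclei), held Tac1 at 118.4 CPM, beside 7.5 CPM in the large cluster 1 led by Calcr and Drd2. None of these clusters was tested by itself. In the setting with clusters in place of gates, cluster 14 was counted with the D1 and the Htr4-gated D1 class. Clusters 1 and 13 together stood for the D2 class there.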
